A study of Mus musculus with 2 samples.

Results

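The epicardium is the outer covering of the heart, a single-layered mesothelium over a thin connective tissue. Mesothelial cells are epithelial in form although they derive from mesoderm, so they carry surface proteins and keratins that the muscle beneath them lacks. In the embryo the epicardium gives rise to fibroblasts and mural cells of the vessels, while in the adult it is thin and mostly quiet, which makes its transcripts a small share of any section through the heart.

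The genes described here were 9 markers of this layer chosen by symbol, Msln, Upk3b, Upk1b, Wt1, Krt8, Krt18, Krt19, Lrrn4 and Itih4, of which 8 were measured among 19465 genes. Krt18 was not analysed here. Spatial transcriptomes were available from 2 formalin-fixed mouse heart sections of 5 µm, 1 per genotype. The control section came from an α-MHC-MerCreMer heterozygous mouse, in which the cardiomyocyte promoter α-MHC drives a tamoxifen-inducible Cre. The transgenic section came from a mouse that carried the same heterozygous Cre and, in addition, a TOP2B LSL allele, a human TOP2B cDNA behind a CAG promoter and a LoxP-flanked STOP at Rosa26. Both mice were given tamoxifen at 80 mg/kg, the drug that activates this Cre, and their labelled genotypes differed in the TOP2B allele. Cre activity was not measured here, and other differences between the mice are not excluded. The promoter that drives the Cre is that of cardiomyocytes, so recombination was directed at the muscle and not at the epicardium. The labels do not give the sex, the age, the time after tamoxifen or the level of the heart at which each section was cut.

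The control section had 1256 spots over tissue with 14376300 unique molecular identifiers (UMIs, counts of captured probe molecules), and the transgenic section had 924 spots with 12953389 UMIs. Each spot covers a patch of tissue with several cells or parts of cells, so it does not stand for a cell. Levels are given as UMIs of a gene per 1000000 UMIs of the same spots (CPM), with exact Poisson 95% intervals, shares with Clopper-Pearson 95% intervals, and ratios with exact conditional binomial 95% intervals. All of them cover counting error only. With 1 section per genotype there was no replicate check and no test, and animal, section plane and genotype cannot be told apart. The mouse Top2b row held 1531 UMIs in the control and 1318 in the transgenic section, and since the transgene is a human cDNA this row does not check the labels. Cardiomyocyte markers were abundant in both sections, at 45635 CPM summed over 5 genes (control) and 25822 CPM (transgenic). Of these, Myh6 went from 18470 to 5734 CPM and Tnni3 from 10089 to 2662 CPM. Ttn and Ryr2 were also lower, while Tnnt2 was at 13091 and 14721 CPM. Over the same sections 6 fibroblast markers went from 1511 to 4357 CPM and 4 erythroid markers from 489 to 4909 CPM. Among the fibroblast markers, Col1a1 went from 172 to 1101 CPM and Col1a2 from 276 to 1746 CPM. Dcn, Lum and Pdgfra were also higher, while Gsn was at 595 CPM in both sections. Of 5 endothelial markers, Kdr went from 215 to 113 CPM and Pecam1 from 77.6 to 107 CPM, while Fabp4, the most abundant, was at 968 and 983 CPM. In addition, 5 macrophage markers went from 181 to 366 CPM, and 7 adipocyte markers stayed low at 4.73 and 3.40 CPM. In spots that mix cells, more cells of a type and more RNA per cell cannot be told apart. These differences, which were not alike for all genes of a list, stand beside every comparison of the sections below. Their part in it was not tested.

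Of the 9 genes, 5 had a RefSeq promoter entry. The upstream parts of Upk3b and Lrrn4 are shown because their levels were highest at the same place, the outer contour of both sections. The sequences cover 250 bases before the annotated start on GRCm38.p6, with capitals marking CATTCC or its reverse complement GGAATG, the core of the motif bound by TEAD factors. Upk3b, chr5:136038246-136038495, + strand, and Lrrn4, chr2:132880863-132881112, - strand, each held 1 match.
Upk3b: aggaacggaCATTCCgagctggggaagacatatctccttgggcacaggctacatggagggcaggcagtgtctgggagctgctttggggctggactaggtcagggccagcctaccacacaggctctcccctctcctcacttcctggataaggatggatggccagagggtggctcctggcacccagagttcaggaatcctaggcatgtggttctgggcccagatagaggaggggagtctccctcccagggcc
Lrrn4: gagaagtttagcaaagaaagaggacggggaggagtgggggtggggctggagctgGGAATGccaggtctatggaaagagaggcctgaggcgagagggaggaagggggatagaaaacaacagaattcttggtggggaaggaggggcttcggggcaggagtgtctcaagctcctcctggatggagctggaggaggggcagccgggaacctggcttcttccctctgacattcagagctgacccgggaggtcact
Both strands were searched over windows of 300 bases, and 14.7% of 32851 promoters held the letters. The windows of Itih4, Krt8 and Krt18 held no match. A match is a description of the letters and not of binding.

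To place the transcripts, spots with fewer than 6 neighbours over tissue were taken as the tissue edge. The edge was then divided into an outer contour, which faces the outside of the section, and an inner border, which faces cavities and gaps. The outer contours were of similar length, with 139 spots in the control and 133 in the transgenic section, whereas the inner border had 91 and 178 spots. The edge as a whole held 18.3% of the spots and 14.0% of all UMIs in the control section, and 33.7% and 28.1% in the transgenic section. Of the 268 UMIs of the 8 genes in the control section, 40.3% (34.4 to 46.4%) lay in edge spots. Of their 592 UMIs in the transgenic section, 49.3% (45.2 to 53.4%) did. In both sections the share of these genes at the edge was thus above the share of all UMIs there.

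**Figure D1:**
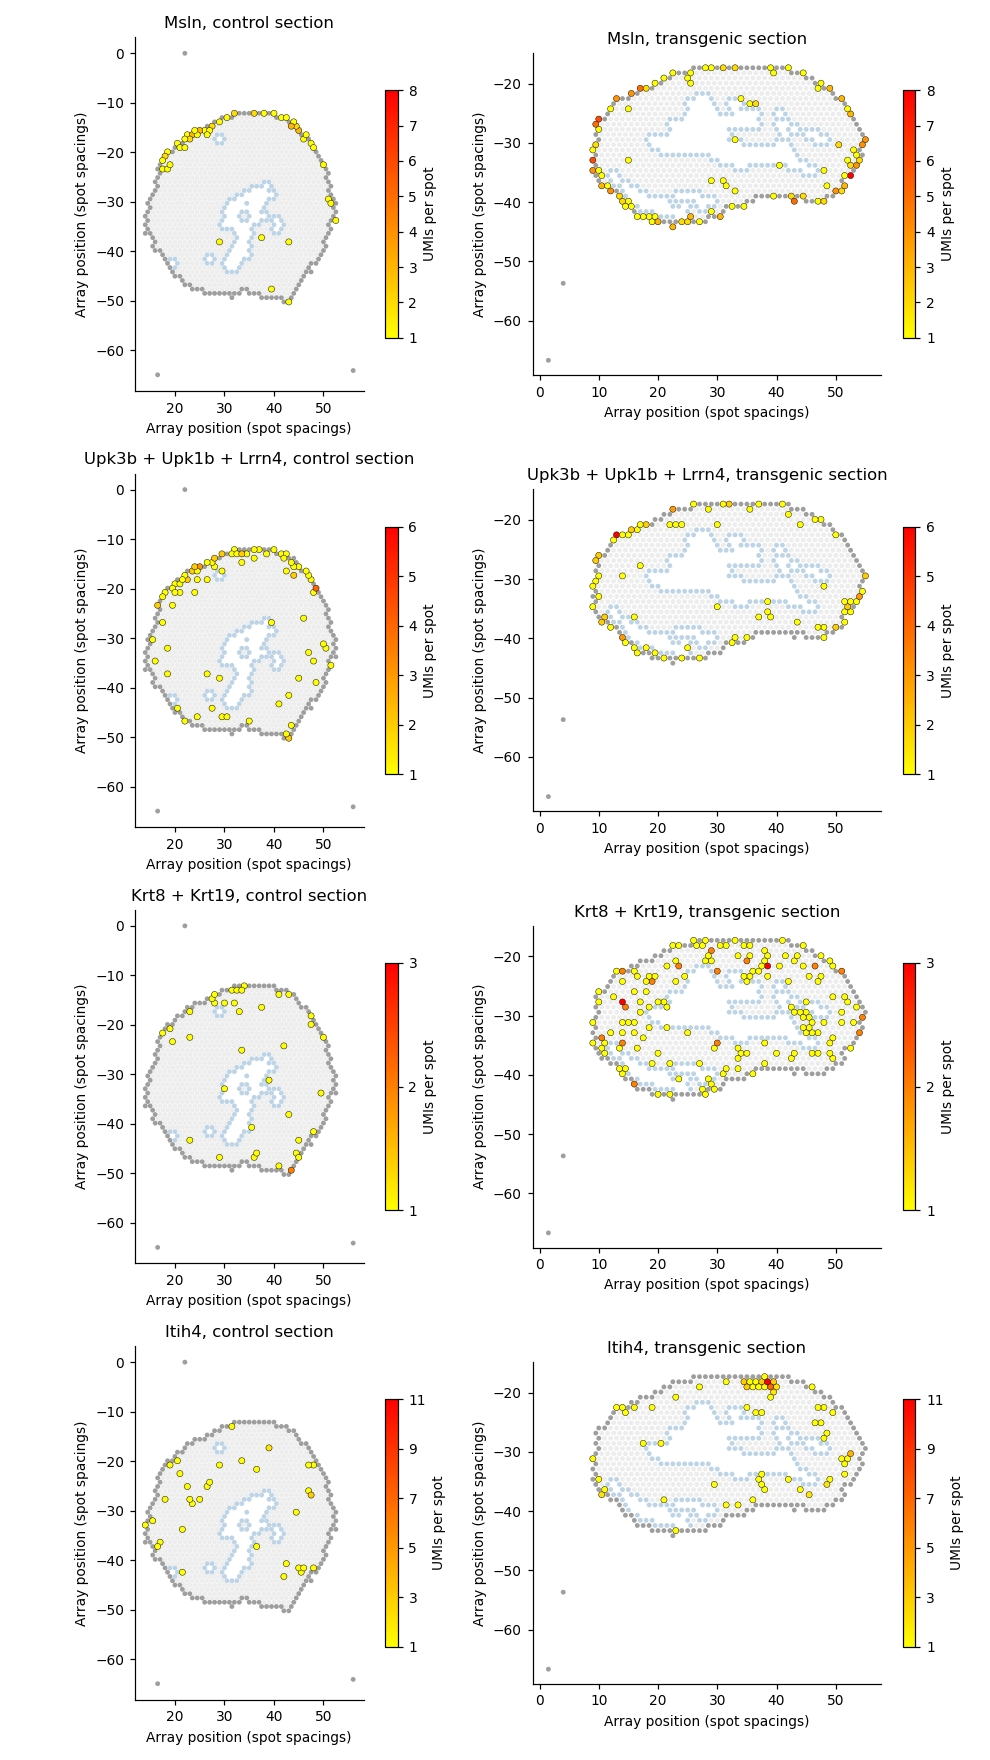
Each dot is a spot at its array position in spot spacings, with the control section on the left and the transgenic section on the right. Dark grey marks the outer contour, pale blue the inner border and light grey the interior, and coloured dots are spots with at least 1 UMI on the scale beside each map. Msln, Upk3b, Upk1b and Lrrn4 are densest on the outer contour, mostly along 1 side in the control section and nearly all round in the transgenic section. Most UMIs of Krt8, Krt19 and Itih4 lie off the contour in both sections, as do those of Upk3b, Upk1b and Lrrn4 in the control section.

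Msln encodes mesothelin, a surface protein anchored in the membrane of mesothelial cells, and it gave the sharpest outline. In the control section 39 of its 59 UMIs lay on the outer contour, none on the inner border and 20 in the interior. Of its 177 UMIs in the transgenic section, 144 lay on the outer contour, 8 on the inner border and 25 in the interior. On the CPM scale the outer contour was at 32.7 against 1.52 in all other spots of the control section, a 21.6-fold difference, and at 87.3 against 2.92 in the transgenic section, a 29.9-fold difference. The 0 UMIs on the control's inner border allow a level of up to 3.65 CPM, the level of 3 counts there, and the exact Poisson interval reaches 4.48 CPM.

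The signal of Msln fell off within a spot or so of the outside. In the control section it was 32.7 CPM on the contour, 9.37 CPM at 1 step inward and 2.19 CPM at 2 steps. For the transgenic section it went from 87.3 to 8.11 and 2.56 CPM over the same steps. Beyond 2 steps it was at most 2.23 CPM in either section. The deposited Moran's I, a score of how far neighbouring spots carry alike values, was 0.18 for Msln in the control section, above that of 99.8% of genes, and 0.09 in the transgenic section, above 91.9%.

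Upk3b and Upk1b belong to the uroplakins, membrane proteins best known from the lining of the bladder, and Lrrn4 encodes a leucine-rich repeat protein of the cell surface that marks mesothelial cells. On the outer contour Upk3b was at 11.7 CPM (control) and 9.70 CPM (transgenic), from 14 and 16 UMIs. Upk1b was at 10.9 and 17.0 CPM there, from 13 and 28 UMIs. Lrrn4 was at 10.9 CPM in both, from 13 and 18 UMIs. Averaged over all remaining spots of either section, the 3 genes were low, between 0.619 and 1.44 CPM. At 1 step inward in the control section, Upk3b was still at 6.02 CPM, Upk1b at 3.35 and Lrrn4 at 4.68. The same step in the transgenic section gave 1.62, 3.24 and 2.16 CPM. The remaining spots are many. In the control section they held 19 of 33 UMIs of Upk3b, 17 of 30 of Upk1b and 15 of 28 of Lrrn4. Of these UMIs, 9, 5 and 7 lay at 1 step inward. The remaining transgenic spots held 7 of 23, 13 of 41 and 11 of 29. None of the 3 genes exceeded 2 UMIs on the inner border of either section.

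The other uroplakins were sparse or spread. Upk1a had 46 and 45 UMIs, of which 6 or fewer lay on the outer contour, Upk3a had 22 and 3 UMIs, and Upk2 had 1 and 0.

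The 4 contour genes tended to be found in the same outer spots. In the control section 16 of 28 outer spots with Msln also held Upk3b, Upk1b or Lrrn4, or 57.1% (37.2 to 75.5%), against 13 of 111 outer spots without Msln, or 11.7% (6.39 to 19.2%). These shares in the transgenic section were 45.2% (32.5 to 58.3%) of 62 spots and 21.1% (12.3 to 32.4%) of 71 spots. In the control section the outer spots without Msln include a side of the contour with few UMIs of any of the 4 genes. The control contrast therefore also takes in that difference between sides, and it was not computed within the marked side. Levels of the 4 genes summed also differed along the transgenic contour, from 42.2 to 220 CPM between the sectors described below. The transgenic contrast takes in those differences and was not computed within sectors. At least 1 of the 4 genes was seen in 29.5% of outer, 2.20% of inner and 5.75% of interior spots in the control section. The corresponding shares in the transgenic section were 57.9%, 5.06% and 7.50%. Outer spots had a median of 8570 UMIs in the control and 12594 in the transgenic section, so shares of spots are also set by depth, which CPM levels are not.

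**Figure D2:**
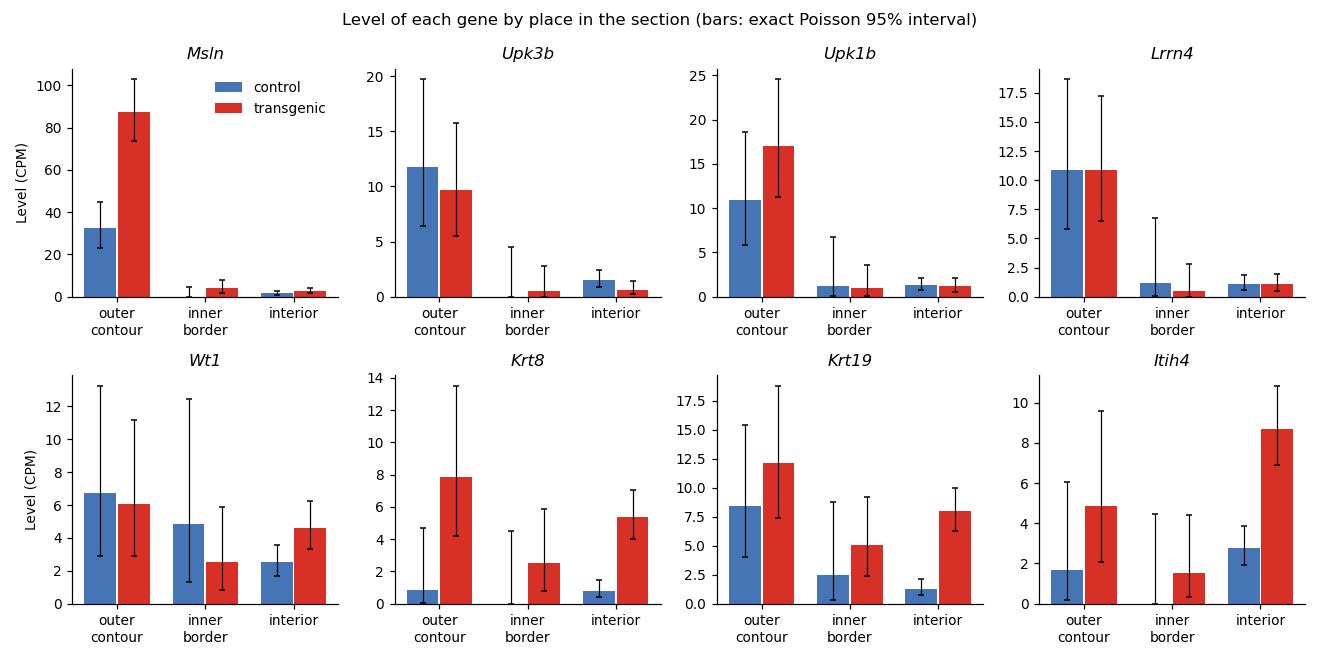
Bars give the level of each gene in CPM on the outer contour, the inner border and the interior of the control (blue) and transgenic (red) sections, with exact Poisson 95% intervals, each panel on its own scale from 0. The upper row shows the 4 genes of the contour and the lower row Wt1, Krt8, Krt19 and Itih4. Wt1, Krt8 and Krt19 also have their highest value on the outer contour in both sections. Among these, only Krt19 in the control section has a contour interval clear of that of the interior.

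Wt1, a zinc-finger transcription factor of the embryonic epicardium, was not confined to the contour. It had 8 outer, 4 inner and 31 interior UMIs in the control section and 10, 5 and 43 in the transgenic section. The outer contour was at 6.71 CPM against 2.65 CPM elsewhere in the control, a log2 difference of 1.34 (0.02 to 2.47), and at 6.06 against 4.25 CPM in the transgenic section, a difference of 0.51 (-0.63 to 1.52). Its Moran's I was -0.01 in the control and 0.01 in the transgenic section.

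Keratins 8 and 19 form intermediate filaments of simple epithelia, Krt8 as a type II and Krt19 as a type I keratin. Krt8 had 11 UMIs in the control section, a level of 0.765 CPM (0.382 to 1.37), which lay within the 7 to 12 UMIs of each of 5 lung epithelium genes that the heart should lack. By that count, which sets different probes side by side, the control level of Krt8 cannot be told from background. In the transgenic section it had 68 UMIs, or 5.25 CPM (4.08 to 6.66), where the lung genes gave 6 to 12. Krt19 had 28 UMIs in the control section, 10 of them on the outer contour, and 104 in the transgenic section, 20 of them there. In the control section Krt19 was thus 6.14-fold higher on the outer contour than elsewhere, with a log2 difference of 2.62 (1.34 to 3.81), while in the transgenic section the difference was 0.71 (-0.08 to 1.42). The difference between those 2 values was not tested.

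Counted over genes, 6 of 7 members with at least 20 UMIs in the control section were at least 2-fold higher in edge than in interior spots, beside 3.24% of all 12242 genes, and 1 of 7, Itih4, was at least 2-fold lower, beside 1.9%. In the transgenic section 4 of 8 were at least 2-fold higher, beside 1.2% of 12441 genes, and Itih4 was again lower, beside 1%. The shares of all genes, here and below, take in genes with far more UMIs than the members and were not matched for count. At low counts, counting error alone carries genes past 2-fold more often. The low edge value of Itih4 rested on 2 edge UMIs in the control section, at -1.47 (-4.57 to 0.49) on the log2 scale, and its transgenic value was -1.53 (-2.58 to -0.61). With the outer contour in place of the edge it was -0.62 in both, and with an edge that takes in the next spots it was -0.31 and -0.25, so the call did not hold. The call of Wt1 in the control section, at 1.25, also fell below 2-fold with the wider edge (0.87) and with each spot scaled to its depth (0.98). With the outer contour against all other spots, 6 of 7 members in the control and 4 of 8 in the transgenic section were at least 2-fold higher, beside 4.45% and 2.59% of genes. The genes past 2-fold in both sections were Msln, Upk3b, Upk1b and Lrrn4, and Wt1 and Krt19 were past it in the control section only, a difference that was not tested.

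**Figure D3:**
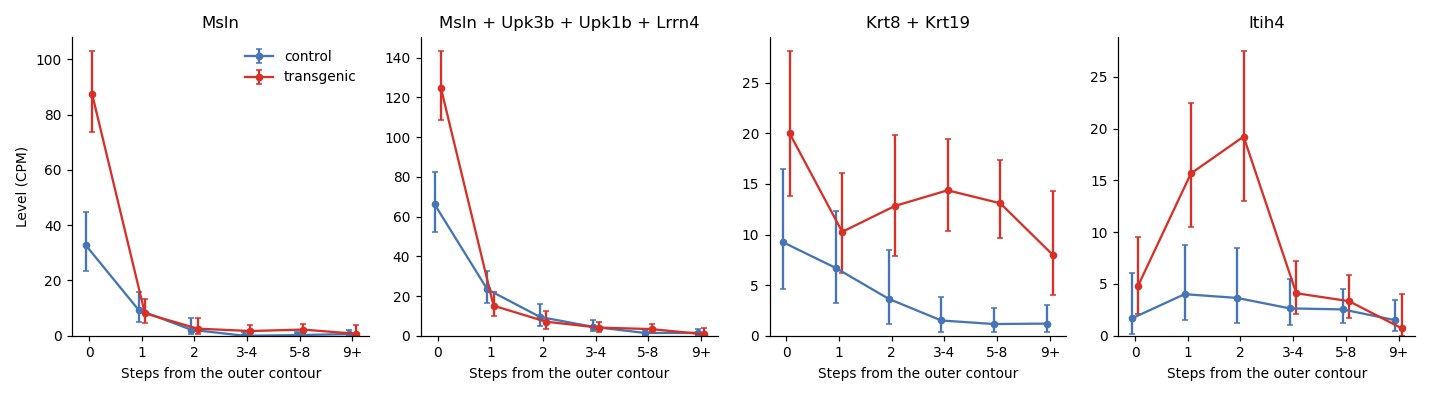
Levels in CPM with exact Poisson 95% intervals are plotted against the number of spots from the outer contour, where 0 is the contour itself, for the control (blue) and transgenic (red) sections. Msln and the 4 contour genes summed drop within 2 steps in both, the summed keratins have the higher value in the transgenic section at every depth, with overlapping intervals at 0, 1 and 2 steps, and Itih4 peaks at 1 to 2 steps inward there.

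The contour was not evenly marked in the control section. It was divided into 8 sectors around the centre of the tissue, of which sectors 5 to 8 form the upper side of the map. The 4 contour genes summed to 11, 33, 21 and 8 UMIs in sectors 5 to 8 and to 2, 3, 1 and 0 in sectors 1 to 4. The control's lower side, with a median of 8499 to 11361 UMIs per spot in its sectors, was not more shallowly counted than the upper side, with 7295 to 8719. Every sector of the transgenic section carried UMIs of these genes, from 5 to 51, and the level ran from 42.2 to 220 CPM, compared with 0 to 266 CPM in the control section. The order of the highest sectors depended on the scale, since in UMIs per spot they were at 1.94 (control, 33 UMIs) and 2.58 (transgenic, 49 UMIs). For Msln alone the highest sector was at 129 CPM (control) and 173 CPM (transgenic).

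The atrial light chain gene Myl7 moved with this pattern in the control section. Its 92 outer UMIs there lay in sectors 5 to 7, with 85 in sector 6, which was also the highest sector of the contour genes. The 12 outer control spots with Myl7 held 19 UMIs of the contour genes, or 222 CPM, and the 127 without it held 60, or 54.2 CPM. In the transgenic section Myl7 was seen in all 8 sectors, and contour genes were present in 57.1% of the outer spots with Myl7 and 58.4% of those without. Over whole sections 4 atrial markers summed to 21.4 CPM (control) and 58.4 CPM (transgenic), none at 0. Myl7 went from 125 to 409 UMIs and Myl4 from 158 to 328, while Sln had 16 and 10 and Bmp10 had 9 in each. Leaving out every spot with Myl7, the control's edge still stood above its interior for Msln, by 3.28 (2.41 to 4.17) on the log2 scale. The part of atrial tissue in the pattern along the contour was not tested beyond these values.

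**Figure D4:**
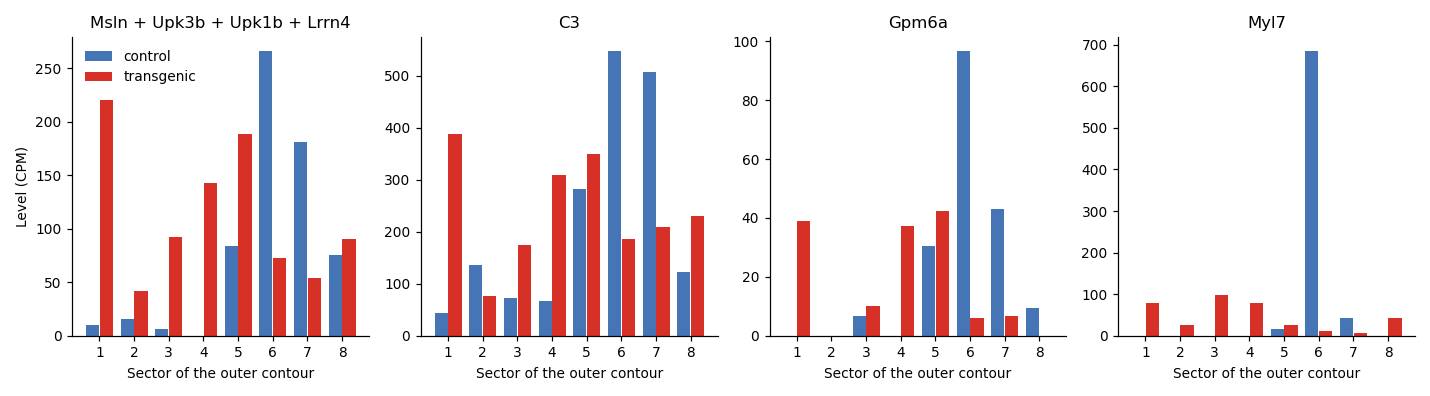
Levels in CPM on the outer contour are shown for its 8 sectors in the control (blue) and transgenic (red) sections, without error bars. Sector numbers of different sections are not matched positions of the heart. The 4 contour genes, C3 and Gpm6a are highest in sectors 5 to 7 of the control section, and Myl7 reaches 684 CPM in sector 6 there. C3 and Gpm6a are the genes most like the contour genes and Wt1 summed across these same spots, so their likeness here is no separate result.

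Between the sections, 4 of the 8 genes were up by 2-fold or more in the transgenic section, beside 13.7% of the 15236 genes with at least 20 UMIs, and none was at least 2-fold lower, beside 5.61%. The median log2 ratio of the 8 genes was 1.05, midway between Upk1b at 0.60 and Itih4 at 1.50, and that of all genes was 0.20. The 4 genes were Msln, Krt8, Krt19 and Itih4, and they differed in where the added UMIs lay.

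Msln had 59 UMIs in the control and 177 in the transgenic section, 4.10 CPM (3.12 to 5.29) and 13.7 CPM (11.7 to 15.8), a 3.33-fold difference. On the outer contour alone the log2 ratio was 1.42 (0.90 to 1.97), or 2.67-fold, and in the interior 0.73 (-0.18 to 1.66). The control contour held 1, 1, 0 and 0 Msln UMIs in sectors 1 to 4 and 5, 16, 13 and 3 in sectors 5 to 8. Each transgenic sector held from 3 to 40. The contour ratio thus averages over a control contour marked mostly along 1 side, which its interval does not cover. Levels within the marked stretches alone were not compared. The other contour genes were not past 2-fold over all spots or on the outer contour. Over all spots the log2 ratio was -0.37 (-1.21 to 0.44) for Upk3b, 0.60 (-0.11 to 1.33) for Upk1b and 0.20 (-0.60 to 1.00) for Lrrn4. On the outer contour it was -0.28 (-1.40 to 0.87), 0.64 (-0.36 to 1.71) and 0.00 (-1.11 to 1.15). These intervals still hold differences of 2-fold in 1 or both directions, so the counts do not show that the levels were alike. That of Upk1b on the outer contour also holds the value of Msln, and the difference between genes was not tested. Of the 5 members with at least 20 UMIs over both outer contours, Msln alone was at least 2-fold higher, beside 16.1% of genes.

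Wt1 had 43 and 58 UMIs, 2.99 CPM (2.16 to 4.03) and 4.48 CPM (3.40 to 5.79), with a log2 ratio of 0.58 (-0.01 to 1.19). The ratio was 0.88 (0.18 to 1.60) in the interior and -0.15 (-1.64 to 1.40) on the outer contour.

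Most of the keratin UMIs added in the transgenic section lay in the interior, which is also the largest part of the section. Krt8 had a log2 ratio of 2.78 (1.85 to 3.85) over all spots, 2.73 (1.73 to 3.88) in the interior, where it went from 10 to 50 UMIs, and 3.23 (0.50 to 8.64) on the outer contour, where it went from 1 to 13. Its control level could not be told from background, and the intervals cover counting error only, so the size of these ratios is not settled. With 1 CPM added to both sections the ratio over all spots was 1.82. Krt19 had a ratio of 2.04 (1.43 to 2.70) over all spots and 2.62 (1.82 to 3.50) in the interior, where it went from 16 to 74 UMIs, and 0.53 (-0.63 to 1.79) on the outer contour. The 2 keratins summed were 2.17-fold (1.07 to 4.76) higher on the outer contour and 6.33-fold (4.12 to 10.1) higher in the interior. These intervals overlap, and Krt8 alone did not have the lower ratio on the contour, so the order of the sums follows Krt19. Spots with Krt8 were 0.876% of the control and 6.82% of the transgenic section, and those with Krt19 were 2.23% and 10.1%. At 8134 UMIs per spot, with shallower spots left out, the shares were 0.654% and 4.17% for Krt8 and 1.50% and 6.40% for Krt19. The UMIs of both were spread. Krt19 was in 3 of 63 transgenic spots with Krt8, or 4.76% (0.99 to 13.3%), against 10.5% (8.49 to 12.7%) of those without. These intervals overlap, so the counts do not settle whether the 2 keratins share spots.

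Of the other keratins, 2 of 5 with at least 20 UMIs were up by 2-fold or more in the transgenic section and 1 was lower, beside 13.7% and 5.61% of all genes. Krt80 went from 34 to 205 UMIs and Krt7 from 13 to 29, with 17 of the 29 on the outer contour, while Krt23 went from 27 to 10. Among 6 junction genes of epithelia, 3 had enough UMIs, of which Cldn3 went from 13 to 40, Cldn4 from 12 to 52 and Cldn7 from 23 to 19. Epcam and Cdh1, which define many epithelia, had 6 and 4 UMIs each in the control and transgenic sections, no more than the lung genes. In the interior, 3 of 8 members, Krt8, Krt19 and Itih4, were up by 2-fold or more in the transgenic section, beside 15% of genes. Upk3b, at 19 and 6 UMIs, had the only interior log2 ratio of -1 or less, -1.25 (-2.87 to 0.13). That interval includes 0, so the direction is not settled. The share of all genes that low in the interior is not given here, so this single value cannot be weighed against it.

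**Figure D5:**
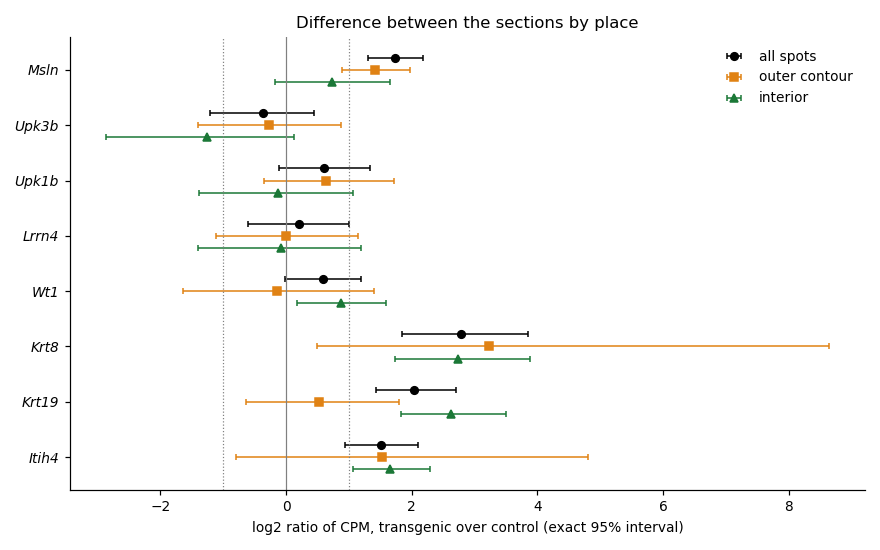
The log2 ratio of CPM, transgenic over control, is shown for each gene with its exact conditional binomial 95% interval, over all spots (circles), the outer contour (squares) and the interior (triangles). Dotted lines mark a 2-fold difference. Msln is raised on the contour taken whole, which in the control section was marked mostly along 1 side, and its interior interval includes 0. Krt8 is raised in the interior, and its contour interval lies above 0 but rests on 1 control UMI. Krt19 and Itih4 are raised in the interior, with contour intervals that include 0. On the contour, Wt1, Krt8 and Itih4 had too few UMIs over both sections for a 2-fold call. The intervals of Upk3b, Upk1b and Lrrn4 include 0 throughout.

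Itih4 encodes a secreted protein of the inter-alpha-trypsin inhibitor family that is best known as a plasma protein made by the liver. It had 36 UMIs in the control and 92 in the transgenic section, 2.50 CPM (1.75 to 3.47) and 7.10 CPM (5.73 to 8.71), a log2 ratio of 1.50 (0.93 to 2.10). Unlike the contour genes it was not concentrated at the outside. The outer contour held 2 of its 36 UMIs in the control section and 8 of 92 in the transgenic section.

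In the transgenic section Itih4 was gathered in a small group of spots just under the contour. The spot with the most held 11 UMIs and the next 7, and a block of 48 spots around the highest spot held 40 of the 92 UMIs. The block was chosen after the values were seen. Without it the log2 ratio was 0.76 (0.12 to 1.42), below 2-fold. Moran's I of Itih4 was 0.20 in the transgenic section, the highest of the 8 genes there, and 0.03 in the control section. Its rank among all genes was similar, above 96.2% of them in the transgenic and 95.1% in the control section.

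The genes whose values across spots were most like those of Itih4, a comparison added after its pattern was seen, were Tagln, Myh11, Ccdc3 and Myl9, with weak mean Pearson correlations over both sections of 0.30, 0.30, 0.28 and 0.23 among 10172 genes. Tagln, Myh11 and Myl9 are contractile genes of smooth muscle. Myh11 was present in 16 of 33 control spots with Itih4, or 48.5% (30.8 to 66.5%), against 18.6% (16.5 to 20.9%) of those without, and in 53.3% (40.0 to 66.3%) against 17.2% (14.8 to 19.9%) of transgenic spots. The same block of spots held 70 of the 287 Myh11 UMIs. Among the rest of its family, Itih2 went from 4 to 41 UMIs and Itih3 from 18 to 42, with outer contours 1.41-fold and 1.37-fold above other spots in the transgenic section, Itih5 from 189 to 337, and Ambp from 11 to 2. Of 7 liver secretory genes, Ttr went from 21 to 253 and Ahsg from 15 to 103 UMIs, while Apoa2 had 53 and 66, Serpina1a 46 and 35, Fgb 14 and 9, Apoa1 9 and 9, and Alb 4 and 11.

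Of 20 further genes of epicardium and mesothelium, 17 had at least 20 UMIs over both sections. Up by 2-fold or more in the transgenic section were 6, a list that includes Aldh1a1, a retinaldehyde dehydrogenase, from 184 to 1486 UMIs, Tcf21, a transcription factor of epicardium and fibroblasts, from 212 to 767, and Sema3d, a secreted guidance protein, from 23 to 66. The share of all genes that high was 13.7%. None was at least 2-fold lower, beside 5.61% of all genes. Lower by less were Ezr, from 1038 to 577 UMIs, Aldh1a2, from 183 to 132, Efemp1, from 97 to 66, and Nkain4, from 30 to 16. The log2 ratio of Ezr was -0.70 (-0.85 to -0.55), and the intervals of the other lower genes included 0. The median log2 ratio was 0.59, that of all genes 0.20. Aldh1a1 and Tcf21 were spread through the section, with outer contours 1.20-fold and 1.23-fold above other spots in the transgenic section. On the outer contour, 6 of 13 genes with enough UMIs in the control section and 6 of 15 in the transgenic section were at least 2-fold higher than elsewhere, beside the 4.45% and 2.59% of all genes given above. The sets differed, and only C3, Gpm6a and Efemp1 were in both. Aldh1a2, Nkain4 and Cldn15 were in the control set only, and Rspo1, Sema3d and Krt7 in the transgenic set only. Nkain4 in the transgenic section, and Rspo1 and Krt7 in the control section, had fewer than 20 UMIs.

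The genes most like the sum of Msln, Upk3b, Upk1b, Wt1 and Lrrn4 across spots were C3, Gpm6a, Efemp1, Gpc3, Rarres2, Myl7, Col3a1, Igfbp5, Aebp1 and Pdpn, with mean correlations from 0.44 down to 0.19. The points are spots of 1 section that share its depth. C3, the central complement component, had an outer contour 4.70-fold above other spots in the control and 3.45-fold in the transgenic section. Gpm6a, a membrane glycoprotein, had one 4.89-fold and 3.58-fold above. Efemp1, a matrix protein, differed more between sections, with 17 of 97 UMIs on the outer contour in the control and 43 of 66 in the transgenic section. Along the contour, C3 and Gpm6a were highest in sectors 5 to 7 of the control section. They ranked 1 and 2 among 10172 genes for likeness across these same spots. Their contour and sector patterns thus follow in part from that choice and are no separate result.

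The markers of the cavity lining were set beside these genes. The 4 endocardial markers Npr3, Plvap, Cytl1 and Nrg1 summed to 190 CPM on the inner border, 72.1 CPM on the outer contour and 39.3 CPM in the interior of the control section. The transgenic section had 303, 124 and 111 CPM at the same places. Of the 4, Cytl1 alone was not higher on the inner border there, with 5 of its 47 UMIs. Msln, Upk3b, Upk1b and Lrrn4 summed to 66.3 CPM on the outer contour and 2.43 CPM on the inner border of the control section. In the transgenic section they summed to 125 and 6.02 CPM. As these 4 were grouped for their place on the contour, the direction of their sum follows from that choice. With Wt1 added, the levels were 73.0 and 7.29 CPM (control) and 131 and 8.53 CPM (transgenic).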

How the data were processed

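Per the labels, both sections were processed with bcl2fastq and Space Ranger against GRCm39, and the matrix header names Space Ranger 2.0.0. The authors deposited UMI counts per gene and spot over tissue, not normalized, from a probe-based assay, so levels were compared within a gene. The exception is the background, taken from the UMIs of genes that the heart should lack, whose probes may differ in yield. They also deposited, per section, a Moran's I score for each gene, used as given. The study's own tests over spots were not repeated, because spots of 1 section are not replicates.

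Counts were summed over spots and divided by the UMIs of those spots (CPM). Genes needed at least 20 UMIs over both sections, or in the section for comparisons within it, and 2-fold means a log2 ratio of at least 1 in size. Edge spots had fewer than 6 neighbours over tissue. Outer contour spots were edge spots whose empty neighbour connects to the frame of the array. Named were all members, the 10 genes most correlated with 5 of them on log2(1 + UMIs per 10000), among genes with at least 50 UMIs in each section, and genes of marker lists. Members and lists were chosen with earlier results of these data known. The sections share 725 spot barcodes, which are array positions and not cells. Doublets do not apply to spots. Interval code was tested on simulated data. Scaling alternatives used edgeR 4.0.16 and DESeq2 1.42.0, in R 4.3.3.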

Additional observations from a re-analysis of the deposited data

Results flagged for a closer look

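The values of Wt1 for edge over interior had opposite signs in the 2 sections. The log2 ratio was 1.25 (0.15 to 2.25, control, 12 edge UMIs) and -0.16 (-1.12 to 0.71, transgenic, 15 edge UMIs), so the transgenic value has no settled direction. For the outer contour against all other spots both values were above 0, at 1.34 and 0.51. The difference was not tested.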

How the results depend on the processing

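No paired analysis was possible because there is 1 section per genotype, and no section could be left out for the same reason. Against the totals, edgeR's TMM factors shifted every log2 ratio by -0.16, DESeq2's size factors by -0.15 and totals without the 50 most abundant genes by -0.09, and under each of them 4 genes were past 2-fold. The count past 2-fold was 1 with edge spots only, 1 with outer contour spots only and 1 among members with at least 200 UMIs, where Msln is the only member left. The median log2 ratio of the members was -0.083 with edge spots only, on the other side of 0, and 1.74 for Msln alone. Fewer genes were tested in the edge and the outer contour. The share of the members' UMIs at the edge was 63.8% in the control and 70.8% in the transgenic section with a larger edge that takes in the neighbours of edge spots, 51.5% and 58.6% with each spot scaled to UMIs per 10000, and 43.4% in the transgenic section for the outer contour. Without spots that hold Myl7, an alternative chosen after seeing the data, 2 of 6 testable members were past 2-fold at the edge of the transgenic section, where Upk3b and Lrrn4 fell under 20 UMIs and Itih4 went from -1.53 to -0.97. Of 84 values of single members between sections and 73 between edge and interior, 75 and 69 stayed within the interval reported above, and none that was past 2-fold changed sign. Counts limit what can be said of the outer contour, where members other than Msln had 1 to 28 UMIs per section.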
